A study of Schizosaccharomyces pombe with 12 samples.

Results

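The genes described here are the mug and meu genes of the fission yeast Schizosaccharomyces pombe. They carry the names that fission yeast researchers gave to genes found for their higher transcript levels in meiosis (mug, meiotically upregulated gene; meu, meiotic expression upregulated). Members were chosen by name alone. Every gene named mug or meu followed by a number was taken, and antisense entries were left out. Only the listed name was searched, so a gene with such a name as a synonym alone was not taken. This gave 115 of the 6936 genes in the tables, 91 named mug and 24 named meu. Of these, 110 code for proteins and 5 are non-coding RNAs (meu3, meu11, meu16, meu19 and meu20). By the annotation of assembly ASM294v3, 55 lie on chromosome I, 31 on chromosome II and 29 on chromosome III.

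The RNA came from cells that were not in meiosis. Polyadenylated RNA was sequenced from cultures growing exponentially in the rich medium YES at 30 °C, in 12 libraries that form 4 groups of 3. The question of the series is what loss of ntu1 or of ntu2 does to transcript levels. The ntu1_KO group is h+ ade6-M216 ura4-D18 leu1-32 with ntu1 replaced by kanMX, and the ntu2_KO group has the same alleles with ntu2 replaced by kanMX. The wt_WT group is h- leu1-32 ura4-D18 ade6-704, and the ntu_WT group is h+ leu1-32 ura4-D18 ade6-M210. All 4 groups thus carry leu1-32 and ura4-D18, and ntu_WT differs from both knockouts in its ade6 allele as well as in the deletion. Each group is labelled as 1 strain, and wt_WT and ntu_WT bear 1 strain name although their genotypes are not the same. Nothing in the labels says that the replicates were separate cultures, so the p-values measure the spread between these libraries, which may be technical.

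Meiosis in fission yeast is set off by nitrogen starvation. The transcription factor Ste11 and the RNA-binding protein Mei2 start the programme, the forkhead factor Mei4 drives the middle genes, and spores form inside the mother cell within a forespore membrane. During vegetative growth many meiotic transcripts are made but removed. The YTH-domain protein Mmi1 binds hexamers of the form TNAAAC in them and leads them to degradation with Red1, Pab2 and the nuclear exosome, while Mei2 and the non-coding RNA meiRNA hold Mmi1 back in meiosis. The mug and meu genes are a mixed collection with regard to function, ranging from recombination proteins and spore wall factors to enzymes of ordinary growth, and many have no known role.

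Total counts per library were 4709606 to 7501178 in ntu1_KO, 3177147 to 6156993 in ntu2_KO, 11308010 to 11782294 in wt_WT and 5998569 to 7556338 in ntu_WT. Each deleted gene was lower in its own knockout. Some signal remained for both, and its source was not tested. The ntu1 transcript averaged 3.90 ± 0.60 TPM in ntu1_KO and 34.5 ± 0.604 TPM in ntu_WT, and the ntu2 transcript averaged 16.02 ± 2.86 TPM in ntu2_KO and 74.97 ± 6.74 TPM in ntu_WT (SD, n = 3 each). TPM is transcripts per 1e+06 transcripts and is corrected for gene length, so it is used below to compare levels between genes. Markers of growing cells summed to between 17435 and 20914 TPM per library over 10 genes. The 14 markers of meiotic cells, of which 4 were under 1 TPM and 1 of these (spo4) had 0 counts, summed to 101 to 105 TPM in ntu1_KO, 102 to 118 TPM in ntu2_KO, 112 to 118.5 TPM in wt_WT and 94.9 to 111 TPM in ntu_WT. Most of that sum came from mes1 and mcp7, which averaged 56.3 and 21.3 TPM over the 12 libraries. The median of the 14 was 2.49 TPM. The 10 M mating-type markers found summed to 349 to 407 TPM in wt_WT and to between 122 and 149 TPM in the other groups. The 6 P mating-type markers found summed to 30.6 to 31.5 TPM in wt_WT and to between 55.0 and 113 TPM in the others.

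Most mug and meu genes were measurable in growing cells, at low levels. Of the 115 members, 95 (82.6%) had a mean over the 12 libraries of at least 1 TPM and 57 (49.6%) of at least 10 TPM, and 98 had a count in every library. The median member stood at 9.03 TPM (quartiles 2.02 and 30.03), against 32.3 TPM over the 6821 other genes. Among protein-coding genes, the 110 members had a median of 10.5 TPM, against 50.3 TPM for the 4990 others. A mean of at least 10 TPM was reached by 50.9% of the coding members, against 90.9% of the other coding genes, and a mean under 1 TPM was seen in 16.4% of the coding members, against 2.69% of the others. The range was wide. In 19 coding members the mean was above the median of the other coding genes. The members named mug had a median of 12.4 TPM, and those named meu a median of 2.08 TPM. In a bulk RNA sample, a few cells with much of a transcript and many cells with little of it cannot be told apart.

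**Figure D1:**
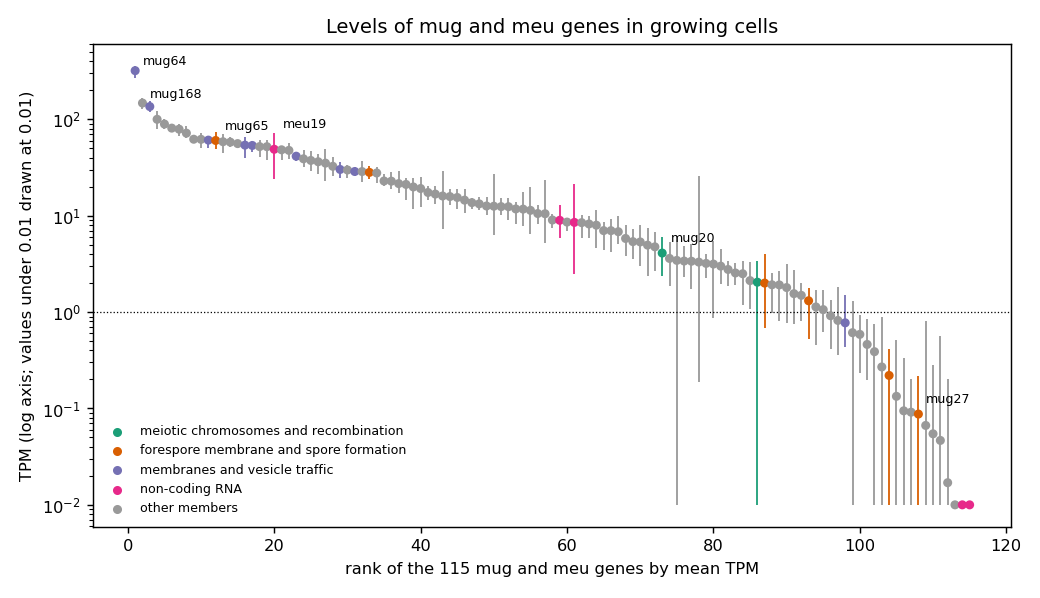
Mean TPM over 12 libraries (points, log axis) and the lowest and highest library (lines) for the 115 mug and meu genes, ranked by mean and coloured by role. The means run from 320 TPM for mug64 to 0 counts in 3 genes, and the dotted line at 1 TPM has 95 members above it.

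The 10 highest members were of mixed kinds, and several have no annotated role. The gene mug64, which encodes a protein with a BAR domain (a membrane-curving fold), was the highest, at 320 TPM (266 to 359 over the 12 libraries), and made up 11.8% of the members' summed TPM. The gene mug168, which has no annotated role, followed at 148 TPM. Next came mug33, whose product works with the polarity protein Tea1 in exocytosis at cell tips, at 136 TPM, and meu29, which has no annotated role, at 100.1 TPM. The remaining 6 of the 10 highest were mug178 (a protein of the mitochondrial ribosome, 89.4 TPM), mug58 (annotated as glycerate kinase, 81.1 TPM), mug105 (a protease for the ubiquitin-fold modifier, 79.1 TPM), mug113 (no annotated role, 71.9 TPM), mug161 (a splicing factor of the CwfJ family, 62.2 TPM) and mug176 (a BRCT domain protein, 62.03 TPM). These 10 together held 42.2% of the members' summed TPM. Among them, mug161 ran from 56.9 to 69.4 TPM over the 12 libraries and mug168 from 129 to 167 TPM, while meu29, described further below, ran from 79.03 to 120.9 TPM.

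Grouped by annotated role, a grouping made after the levels were known, the members differed in level. The 9 genes of membranes and vesicle traffic had a median of 53.6 TPM, and 8 of them exceeded 10 TPM. They include mug89 (a subunit of a phospholipid-translocating ATPase, 60.9 TPM), mug16 (an UNC-50 family protein, 54.03 TPM) and mug84 (a subunit of the enzyme that starts GPI anchors, 53.6 TPM). The BAR adaptor gene mug137 was the exception at 0.774 TPM. The 3 genes of ubiquitin and related modifiers had a median of 47.7 TPM, and the 4 genes of RNA processing a median of 34.8 TPM, with mug151 at 52.1 TPM, the coilin gene mug174 at 17.4 TPM and the RNA-binding protein gene mug24 at 2.55 TPM. The 11 genes of metabolism, transport and mitochondria spanned 0.0915 TPM for mug62, a putative AMP-binding enzyme, to 89.4 TPM for mug178. The 75 members with no role in the annotation had a median of 7.98 TPM.

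The members that act in meiosis and sporulation themselves were mostly low. The recombination genes were meu13, the fission yeast Hop2, which pairs homologous chromosomes, and mug20, a component of the linear elements that form along meiotic chromosomes. The meu13 gene had 2.71, 2.69 and 1.68 TPM in ntu1_KO, 0, 0.431 and 1.67 TPM in ntu2_KO, 2.30, 1.65 and 3.39 TPM in wt_WT and 2.62, 2.68 and 2.71 TPM in ntu_WT. The mug20 gene had 3.47, 4.66 and 4.77 TPM in ntu1_KO, 3.56, 3.32 and 4.37 TPM in ntu2_KO, 5.33, 6.03 and 5.03 TPM in wt_WT and 3.05, 3.24 and 2.38 TPM in ntu_WT. All 4 groups of each gene thus stood within a few TPM, and the ntu2_KO libraries of meu13 were all at or below 1.67 TPM. The meu13 gene was below the count filter and was not tested. The forespore membrane and spore genes split. Low levels were found for meu14, which marks the leading edge of the forespore membrane (2.0 TPM), meu10, a GPI-anchored protein of the spore wall (1.31 TPM), mug28, an RNA-binding protein needed for spore formation (0.220 TPM), and mug27, also called slk1, a protein kinase of forespore membrane growth (0.0875 TPM). By contrast, mug65 and mug56, both annotated as spore wall assembly proteins, averaged 60.4 and 28.2 TPM, with lowest libraries of 49.8 and 24.1 TPM.

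The 20 members under 1 TPM made up 17.4% of all. Of these, 3 had 0 counts in all 12 libraries, the protein-coding gene mug96 and the non-coding meu11 and meu20. With 3 counts over the 88571433 counts of the 12 libraries as the limit, this allows up to 0.0339 counts per 1e+06 counts (CPM), which covers counting error only. Of the 17 others under 1 TPM, mug128 (0.0667 TPM), mug112 (0.0466 TPM) and mug116 (0.0170 TPM) lay near that floor. At that depth their differences between groups were not measurable.

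The other meu genes filled the range between. The E3 ubiquitin ligase gene meu34 averaged 47.7 TPM, meu18 29.8 TPM, meu1.SPAC1556.06 16.03 TPM and meu23 11.8 TPM. Below 10 TPM lay meu43 (3.37 TPM), meu31 (3.0 TPM), the pleckstrin homology gene meu6 (2.77 TPM), meu32 (2.12 TPM), meu25 (1.92 TPM), the alpha-amylase gene meu7 (1.49 TPM) and the amino-acid permease gene meu22 (1.13 TPM). Under 1 TPM were meu15 (0.612 TPM), meu27 (0.587 TPM), the glucosidase gene meu17 (0.388 TPM) and meu26 (0.0546 TPM). The non-coding RNAs meu19, meu16 and meu3 averaged 48.9, 8.96 and 8.53 TPM. Of the exon sequence of meu3 and meu19, 63.7% and 62.9% of the 31-base stretches also occur elsewhere in the ASM294v3 genome. Their counts are therefore uncertain, as are those of meu7 and mug135, where the shares are 13.7% and 12.6%. In mug163 the share was 0.269%. A further 50 members overlap another protein-coding gene, where reads can be divided in ways the tables do not show.

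There were 4 pairs of members next to each other on their chromosome. The pair mug105 and meu29 stood close, at 79.1 and 100.1 TPM. In the other 3 pairs 1 gene was far lower, with mug177 at 7.01 TPM beside mug58 at 81.1 TPM, mug97 at 1.06 TPM beside mug57 at 56.04 TPM, and mug116 at 0.0170 TPM beside mug86 at 12.4 TPM.

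Because Mmi1 is known to remove meiotic transcripts from growing cells, the TNAAAC hexamer was counted on the sense strand of the annotated exons of ASM294v3, with overlapping matches counted and the other strand counted beside it. The search and its thresholds were chosen after the levels had been seen. A typical member was close to other genes in the hexamer. The median was 1.75 matches per 1000 bases in the 110 coding members, against 1.64 in the 4990 other coding genes, and 92.7% of members held at least 1 match, against 89.3% of the others. For the other strand the medians were 1.61 and 1.86, and 86.4% of members held a match, against 90.8% of the others. Dense matches were a feature of a minority. At least 3 per 1000 bases were found in 27 members (24.5%), against 11.9% of the other genes, at least 4 in 17.3%, against 4.27%, and at least 5 in 10.9%, against 1.54%. On the other strand the shares at 3, 4 and 5 were 16.4%, 4.55% and 2.73% of members, against 17.6%, 6.15% and 2.32% of other genes. These are descriptions of the sequences, and no test was made of them.

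The 27 members with at least 3 matches per 1000 bases had a median of 3.37 TPM, against 12.6 TPM for the 83 coding members with fewer. Among the other coding genes the same division gave medians of 45.7 and 50.8 TPM. With at least 3 matches on the other strand, 18 members had a median of 21.3 TPM and 879 other coding genes 58.3 TPM. The 12 members with at least 5 on the sense strand had a median of 4.43 TPM, so the level did not fall further with density. The densest were mug9 with 9 matches (13.1 per 1000 bases, 4.96 TPM), the Hop2 gene meu13 with 5 (7.68 per 1000 bases, 2.04 TPM), mug45 with 18 (7.16 per 1000 bases, 5.39 TPM) and the linear element gene mug20 with 6 (6.97 per 1000 bases, 4.10 TPM). A high density did not always go with a low level. The mitochondrial ribosome gene mug178 held 9 matches at 89.4 TPM, and mug74 held 7 on each strand at 19.2 TPM. Conversely mug27, at 0.0875 TPM, was not among the 27. A match is a string of letters in an annotated exon, and binding was not measured here.

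**Figure D2:**
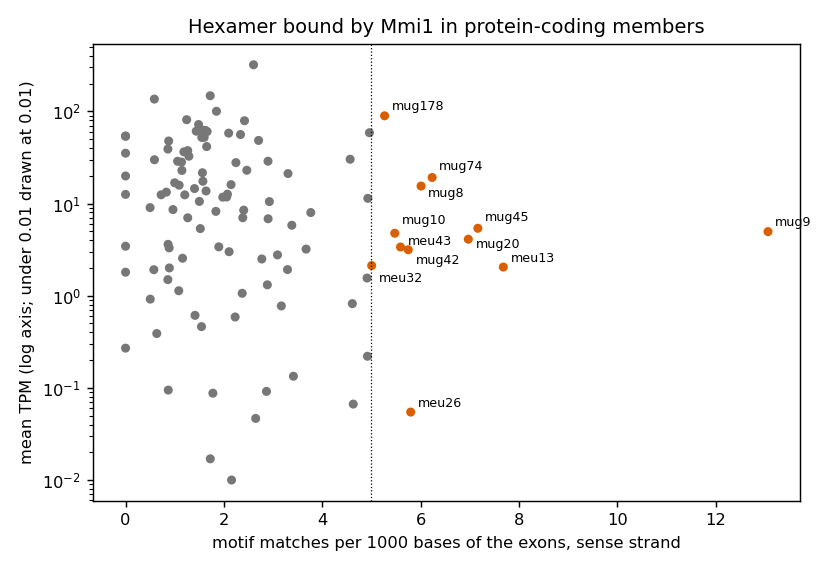
Matches of the hexamer bound by Mmi1 per 1000 bases of sense-strand exon (x) against mean TPM over 12 libraries (y, log axis) for the 110 protein-coding mug and meu genes, with genes of at least 5 per 1000 bases in orange and named. The 12 named genes lie mostly under 10 TPM, and mug178 stands apart at 89.4 TPM.

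Antisense RNA was measured at 23 members, and at 12 of them it exceeded the gene throughout. The tables hold 26 entries named as antisense to a mug or meu gene, of which 23 pair with a member each. The other 3 (mug1-antisense-1, mug54-antisense-1 and mug136-antisense-1) have no member under that name and are not described further. The antisense RNA was above the gene itself in all 12 libraries for 12 of the 23, in 4 (meu18, mug124, mug182 and mug161) the gene was above its antisense RNA in all 12, and in 7 the order varied between libraries. The median antisense RNA stood at 9.86 TPM and the median of the 23 genes at 3.39 TPM, while the 92 members without an antisense entry had a median of 12.5 TPM. The 5 most abundant antisense RNAs were those of mug2 (60.3 TPM, gene 8.47 TPM), mug68 (33.7 TPM, gene 0.820 TPM), meu14 (20.9 TPM, gene 2.0 TPM), mug95 (19.1 TPM, gene 0.270 TPM) and mug135 (16.3 TPM, gene 12.4 TPM). In mug2 no library of the gene, at 5.81 to 10.3 TPM, came near the antisense RNA, at 48.5 to 70.0 TPM. The kinase gene mug27, at 0 to 0.218 TPM, was paired with an antisense RNA at 6.45 to 14.1 TPM. The libraries mark strand, but no source used here says whether the counting kept it, and the reads of such pairs may be divided uncertainly.

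**Figure D3:**
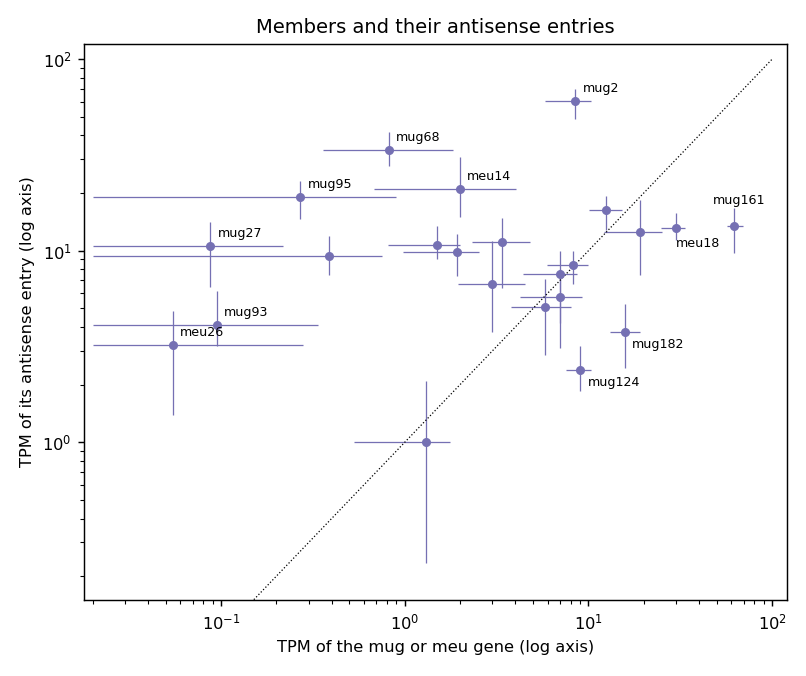
Mean TPM of 23 mug and meu genes (x, log axis) against that of their antisense RNAs (y, log axis), with lines from the lowest to the highest of the 12 libraries and values under 0.02 drawn at 0.02. Points above the dotted line have more antisense than sense, as in mug2, mug68, meu14, mug95 and mug27.

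Group means of most tested members lay within 1.5-fold of each other. For each of the tested members the highest group mean was divided by the lowest, and the median ratio was 1.30, against 1.15 over all genes tested. Members lie at lower levels, where values are less precise, and no genes of like level were compared. In the test among the 4 groups, 18.95% of tested members had an unadjusted edgeR p under 0.05, beside 22.05% of all genes. The ratio of group means was examined further. It was under 1.5 in 72 of 95 tested members and at least 2 in 5, and the shares of all genes at these limits were not computed. These 5 were mug108, mug37, mug130, meu3 and mug133, named here because of their ratios, and all lay under 10 TPM. In mug108 a single library, ntu_WT replicate 1, made the ratio. It had 2.15, 1.02 and 0.909 TPM in ntu1_KO, 3.21, 0.187 and 1.11 TPM in ntu2_KO, 1.17, 1.06 and 0.943 TPM in wt_WT and 25.6, 1.14 and 1.16 TPM in ntu_WT. The same library stood apart in mug14, at 27.1, 11.9 and 10.9 TPM in ntu_WT, and in the starvation markers fbp1 (27.1, 3.53 and 3.80 TPM in ntu_WT) and inv1 (16.9, 3.34 and 2.57 TPM in ntu_WT), all named after their values were seen. The other starvation markers did not stand apart in that way. In both knockouts too, replicate 1 was the highest for mug108, fbp1 and inv1. There fbp1 had 5.39, 3.35 and 3.42 TPM in ntu1_KO and 11.0, 2.43 and 2.83 TPM in ntu2_KO. The inv1 values were 6.87, 2.48 and 3.97 TPM in ntu1_KO and 6.87, 2.27 and 1.86 TPM in ntu2_KO. The part of these genes in the mug108 value was not tested. Level and precision were linked. The median standard error of the log2 fold change between the wild types was 0.29 in the 38 tested members under 10 TPM and 0.12 in the 57 at or above it.

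Deletion of ntu1 or ntu2 was not followed by a called change in any tested mug or meu gene. The threshold for a call was an edgeR p under 0.05 after Benjamini-Hochberg adjustment over all genes tested, together with a change of at least 2-fold. Of the 92 members tested, 0 were called in ntu1_KO over ntu_WT, where 0.224% of all genes tested were called, and 0 in ntu2_KO over ntu_WT, where 0.155% were. With no fold minimum the member counts were still 0, beside 0.74% and 0.758% of all genes. At shares as small as these a count of 0 among 92 is close to the background. DESeq2 and limma also called 0 members in both comparisons. At an unadjusted p under 0.05 edgeR found 10 members in ntu1_KO and 9 in ntu2_KO, or 10.9% and 9.78% of those tested, beside 5.89% and 9.06% of all genes. The medians of the members' log2 fold changes were 0.03 and 0.01. The 95% interval of the fold change lay within 2-fold either way for 72 members in ntu1_KO and 74 in ntu2_KO, a count chosen after the values were seen. For the other 20 and 18 the interval reaches past 2-fold, so the depth does not show whether such a change was there. Both comparisons share the ntu_WT libraries.

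The members with the lowest p in each knockout can be given as examples of what was not called. The alpha-amylase gene meu7 had 2.31, 3.56 and 2.95 CPM in ntu1_KO and 5.59, 4.78 and 5.72 CPM in ntu_WT. The groups do not overlap. Its log2 fold change of -0.84 had an adjusted p of 0.447 by edgeR. The gene mug35 had 40.8, 48.8 and 41.9 CPM in ntu1_KO and 53.5, 56.5 and 55.1 CPM in ntu_WT, which is a change of -0.32 on the log2 scale (adjusted p = 0.570). Again the groups do not overlap. In ntu2_KO the lowest p were those of mug150, with 6.0, 6.49 and 8.33 CPM in ntu2_KO and 4.91, 2.92 and 4.61 CPM in ntu_WT (log2 fold change 0.77, edgeR adjusted p = 0.319), and of mug176, with 90.02, 81.6 and 78.6 CPM in ntu2_KO and 69.3, 74.6 and 67.5 CPM in ntu_WT (0.23, adjusted p = 0.323). All 4 missed the threshold after adjustment.

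Between the knockouts, ntu1_KO over ntu2_KO, 0 of 92 members were called by edgeR, beside 0.103% of all genes, and DESeq2 and limma called 0 as well. At an unadjusted p under 0.05 there were 5 members, 5.43% of those tested, beside 6.66% of all genes. The lowest p were those of mug115 (119.5 ± 4.42 CPM in ntu1_KO and 95.8 ± 9.94 CPM in ntu2_KO, SD, n = 3 each, log2 fold change 0.31, edgeR adjusted p = 0.450) and meu7 (2.94 ± 0.622 CPM in ntu1_KO and 4.92 ± 1.26 CPM in ntu2_KO, log2 fold change -0.76, edgeR adjusted p = 0.685). The 95% interval was within 2-fold for 78 members.

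**Figure D4:**
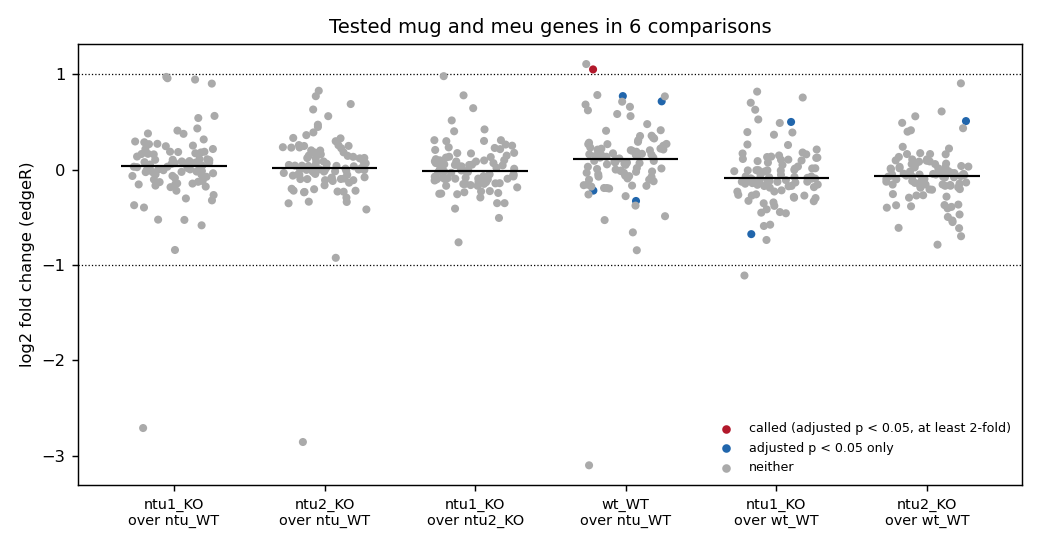
Log2 fold changes (edgeR, first group over second) of the tested mug and meu genes in 6 comparisons, 92 genes in the first 3 and 95 in the others. Each point is a gene, black bars are medians, dotted lines mark 2-fold, and 1 gene (mug133, red) is called. The points near -3 against ntu_WT are mug108.

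More genes of all kinds were called between the wild types than between either knockout and ntu_WT. The wild types differ in mating type and in the ade6 allele, and the wt_WT libraries are also the deepest. Libraries varied less within the wild types than within the knockouts (chi-square divided by its degrees of freedom, 4.23 in wt_WT and 4.68 in ntu_WT, 40.5 in ntu1_KO and 11.9 in ntu2_KO). Which of these goes with the differences cannot be told apart. In wt_WT over ntu_WT, 1 of 95 members was called by edgeR, mug133, beside 1.03% of all genes, and 0.627% called higher. DESeq2 and limma called 0. At an unadjusted p under 0.05 there were 25 members (26.3%), beside 23.3% of all genes. With no fold minimum 5 members passed, beside 8.24% of all genes. These shares lie near or below the background. The members' log2 fold changes had a median of 0.11, against 0.003 over all genes, with 62 positive and 33 negative. The members' summed TPM was 2639 to 2725 in ntu1_KO, 2691 to 2733 in ntu2_KO, 2832 to 2864 in wt_WT and 2530 to 2729 in ntu_WT, and the wt_WT range lies above the others. The largest difference in the sum came from mug64, at 342 ± 6.77 TPM in wt_WT and 300.1 ± 28.9 TPM in ntu_WT (SD, n = 3 each). Members took 0.272% of all TPM over the 12 libraries, while being 1.66% of the genes.

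The called gene was a low one. The gene mug133, with no annotated role, had 3.74, 3.16 and 3.58 CPM in ntu1_KO, 4.11, 1.83 and 3.40 CPM in ntu2_KO, 4.10, 4.05 and 3.40 CPM in wt_WT and 2.03, 1.33 and 2.23 CPM in ntu_WT. The ntu_WT mean was the lowest, and of the other groups only ntu2_KO overlaps it. Its log2 fold change in wt_WT over ntu_WT was 1.05 ± 0.31 (SE, edgeR adjusted p = 0.0394). The call was lost without any 1 of the 6 libraries and under DESeq2 and limma.

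The 4 other members that passed without a fold minimum had changes under 2-fold. The gene meu29 had 90.8, 75.1 and 78.3 CPM in ntu1_KO, 84.7, 77.9 and 83.5 CPM in ntu2_KO, 56.02, 61.1 and 55.4 CPM in wt_WT and 72.8, 73.7 and 70.2 CPM in ntu_WT. The wt_WT libraries lay below every other library, and the log2 fold change was -0.33 ± 0.07 over ntu_WT (edgeR adjusted p = 0.00906). The non-coding RNA meu16 had 15.7, 13.2 and 13.3 CPM in ntu1_KO, 20.2, 19.0 and 17.0 CPM in ntu2_KO, 21.9, 24.2 and 21.1 CPM in wt_WT and 16.6, 12.9 and 11.7 CPM in ntu_WT. Here wt_WT lay above every other library, with a log2 fold change of 0.72 ± 0.14 over ntu_WT (edgeR adjusted p = 0.00338).

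The exocytosis gene mug33 had 162, 182 and 172 CPM in wt_WT and 217, 196 and 188 CPM in ntu_WT, a change of -0.22 ± 0.06 on the log2 scale (edgeR adjusted p = 0.0275). The gene mug150 had 6.15, 7.93 and 6.97 CPM in wt_WT and 4.91, 2.92 and 4.61 CPM in ntu_WT, a change of 0.77 ± 0.23 (edgeR adjusted p = 0.0443). In both genes the groups do not overlap. Of 14 alternative settings, meu16 stayed under an adjusted p of 0.05 in 14, meu29 in 10, mug33 in 7, mug150 in 5 and mug133 in 4.

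**Figure D5:**
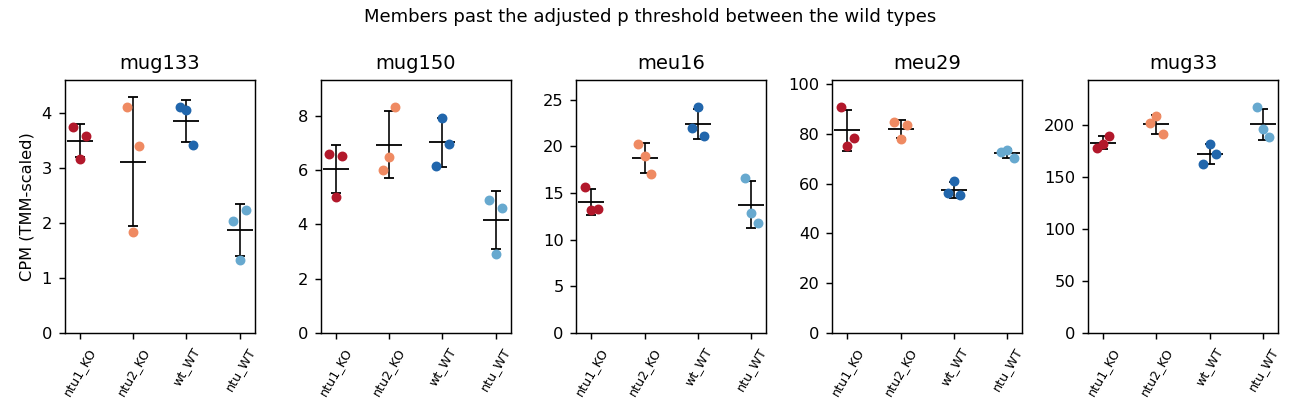
TMM-scaled CPM of the 5 mug and meu genes past an adjusted p of 0.05 between wt_WT and ntu_WT, for each of 12 libraries (points) with the group mean and SD (black bars). The wt_WT libraries of meu29 lie below all others, those of meu16 above all others, and ntu_WT is the lowest group for mug133 and mug150.

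Against wt_WT, 0 of 95 members were called by edgeR in either knockout, beside 1.0% of all genes in ntu1_KO and 0.424% in ntu2_KO, and 0 by DESeq2 and limma. At an unadjusted p under 0.05 there were 14 members in ntu1_KO (14.7% of those tested, beside 20.1% of all genes) and 9 in ntu2_KO (9.47%, beside 16.8%). These comparisons share the wt_WT libraries with the comparison of the wild types. With no fold minimum, meu29 and meu16 passed in ntu1_KO, beside 5.87% of all genes, with log2 fold changes of 0.50 ± 0.08 (edgeR adjusted p = 0.000340) and -0.68 ± 0.14 (adjusted p = 0.00851). In ntu2_KO meu29 passed, beside 3.78% of all genes, at 0.51 ± 0.08 (edgeR adjusted p = 0.000408), and mug33 at 0.22 ± 0.06 did not (adjusted p = 0.0507). In the test of any difference among the 4 groups, 0 of 95 members were called by edgeR, beside 1.46% of all genes, and 0 by DESeq2 and limma, with 18 (18.9%) at an unadjusted p under 0.05, beside 22.1% of all genes. Of these, meu29 and meu16 passed with no fold minimum, beside 7.39% of all genes.

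The antisense RNAs of the 23 members were tested in the same fits. In every comparison 0 were called by edgeR, by DESeq2 and by limma. With no fold minimum, mug27-antisense-1 and mug126-antisense-1 passed in wt_WT over ntu_WT, with log2 fold changes of 0.67 and 0.69 (edgeR adjusted p = 0.00814 and 0.0158), 2 of 23 beside 8.24% of all genes. In ntu1_KO over wt_WT, mug2-antisense-1, meu14-antisense-1 and meu31-antisense-1 passed, at -0.38, -0.54 and -0.81 (edgeR adjusted p = 0.0168, 0.0371 and 0.0401), 3 of 23 beside 5.87% of all genes. In the test among the 4 groups mug27-antisense-1 and mug2-antisense-1 passed (edgeR adjusted p = 0.0359 and 0.0442), beside 7.39% of all genes. None passed in either knockout over ntu_WT, where 4 of 23 in ntu1_KO and 0 of 23 in ntu2_KO had an unadjusted edgeR p under 0.05 (beside 5.89% and 9.06% of all genes) and the lowest adjusted p were 0.591 in ntu1_KO and 0.577 in ntu2_KO.

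Other genes of the meiotic programme, not listed under a mug or meu name, also ranged from undetected to high. Some of them may carry such a name as a synonym. The 15 meiotic regulators had a median of 3.70 TPM. Of these 6 were under 1 TPM, among them mei3, which inactivates the kinase Pat1, at 0.406 TPM, the activator gene mfr1 at 0.219 TPM and spo4 at 0 counts, named here for their low values, with mes1, an inhibitor of the anaphase-promoting complex in meiosis, at 56.3 TPM and ste11 at 36.7 TPM. The 26 genes of meiotic recombination and chromosomes had a median of 3.04 TPM. Of these 5 were under 1 TPM, such as the meiotic recombinase gene dmc1 at 0.247 TPM and rec7 at 0.182 TPM, with the dynein light chain gene dlc1, which also serves growing cells, at 326 TPM, rec14 at 38.6 TPM and the shugoshin gene sgo1 at 31.6 TPM. The 17 sporulation genes had a median of 17.2 TPM, and 12 of them exceeded 10 TPM. The highest included spo20, a phosphatidylinositol transfer protein, at 310.4 TPM, and psy1, a syntaxin, at 175 TPM. The list of 13 factors of meiotic RNA elimination had a median of 67.3 TPM, with the poly(A)-binding protein gene pab2 at 198 TPM, erh1 at 174 TPM and the poly(A) polymerase gene pla1 at 74.1 TPM. It also includes sme2, the gene of meiRNA, which holds Mmi1 back in meiosis, as its lowest at 6.72 TPM.

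Of these lists only the regulators held called genes, and only against wt_WT. The ste11 gene averaged 24.6 ± 1.46 TPM in wt_WT and 49.3 ± 3.64 TPM in ntu_WT (SD, n = 3 each), and its log2 fold change was -1.09 ± 0.16 (edgeR adjusted p = 0.00177). The mei2 gene averaged 11.3 ± 0.715 TPM in wt_WT and 26.01 ± 3.39 TPM in ntu_WT, and changed by -1.30 ± 0.27 on the log2 scale (edgeR adjusted p = 0.0217). These were 2 of 9 regulators tested, both lower in wt_WT, beside 1.03% of all genes called. The regulators did not move together. With no fold minimum 3 of the 9 passed, beside 8.24% of all genes. The third, ssm4, was higher in wt_WT, at 0.72 ± 0.21 (edgeR adjusted p = 0.0358). The 9 had a median log2 fold change of 0.05. The ste11 call held without each of the 6 libraries in turn. In the 3 limma settings its adjusted p stayed at 0.00520 to 0.00724 and its change fell just short of 2-fold. The mei2 call held in the 3 limma settings. It was lost without any 1 of the 6 libraries (edgeR adjusted p = 0.0594 to 0.0855), with a log2 fold change of -1.35 to -1.21. In ntu1_KO over wt_WT mei2 was called higher, at 1.25 ± 0.28 (edgeR adjusted p = 0.0359). This call also held in the 3 limma settings (limma adjusted p = 0.0390 to 0.0487). It was lost without any 1 of the 6 libraries (edgeR adjusted p = 0.0541 to 0.130). In the test among the 4 groups edgeR called ste11. Of all genes, edgeR called 1.0% in ntu1_KO over wt_WT and 1.46% among the 4 groups. DESeq2 called 2 regulators in wt_WT over ntu_WT and 1 in ntu1_KO over wt_WT. Among the 4 groups DESeq2 called 2 and limma 0. The other lists had 0 of 19, 0 of 17 and 0 of 13 tested genes called by edgeR in wt_WT over ntu_WT, and 0 by DESeq2 and limma, with 4 in each list at an unadjusted p under 0.05, beside 23.3% of all genes. In both knockouts over ntu_WT, 0 genes of any list were called by edgeR, DESeq2 or limma, and 0 passed in edgeR with no fold minimum. Over all genes edgeR called 0.224% in ntu1_KO and 0.155% in ntu2_KO, and 0.74% and 0.758% passed with no fold minimum. At an unadjusted edgeR p under 0.05 stood 0 of 9 regulators, 1 of 17 recombination genes, 2 of 15 sporulation genes and 0 of 13 elimination factors in ntu1_KO, and 2, 2, 4 and 1 of the same lists in ntu2_KO. The shares over all genes were 5.89% in ntu1_KO and 9.06% in ntu2_KO. The sums of the M and P mating-type markers, given above, differed between the wild types alongside ste11 and mei2. Not every marker did. The M marker mat1-Mc had 104 to 118 TPM in wt_WT and 0 to 3.18 TPM in ntu_WT. For mfm2 the values were 95.6 to 146 TPM and 4.25 to 8.12 TPM. The P marker mat2-Pc had 0 TPM in wt_WT and 67.8 to 70.9 TPM in ntu_WT. The wild types overlapped in mam2, mam3, mam4, mfm1, mfm3, map2 and map4. The part of the mating-type markers in the ste11 and mei2 differences was not tested. The 9 nitrogen starvation markers, which summed to 258 to 277 TPM in wt_WT and 246 to 329 TPM in ntu_WT, did not move together. Lower in wt_WT were isp4 (9.77 to 11.7 TPM, against 30.2 to 35.7 TPM in ntu_WT) and inv1 (1.73 to 2.09 TPM, against 2.57 to 16.9 TPM). Higher in wt_WT were isp7 (68.9 to 74.2 TPM, against 47.3 to 54.8 TPM) and amt3 (2.48 to 2.70 TPM, against 1.49 to 1.72 TPM). In the other markers the wild types overlapped. The part of these markers was not tested either.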

How the data were processed

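Per the labels' protocols, RNA was extracted with a yeast RNA kit and libraries were made with Illumina Stranded mRNA Prep from 300 ng of total RNA. The authors deposited estimated counts per gene, of which 91.2% of non-zero values are not whole, and TPM values with the same columns. The submitters' processing notes name Salmon 1.9.0 and the build ASM294v2, without their roles, and no source used here says whether counting kept strand. Identifiers were matched to the ASM294v3 annotation, 6743 of 6936 genes and all 115 members. Since the builds differ, no coordinates or genome sequences are printed.

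Estimated counts were rounded (library totals moved by at most 0.0027%) and tested by quasi-likelihood in edgeR 4.0.16 under R 4.3.3 (filterByExpr with a minimum count of 10, TMM, robust fit). Comparisons among ntu1_KO, ntu2_KO and ntu_WT used 9 libraries and 5808 genes, and those with wt_WT used 12 libraries and 5899 genes. Of the members 92 and 95 were tested, and the highest not tested averaged 3.44 TPM (mug103). The test was tried on simulated counts. Alternatives were DESeq2 1.42.0, its size factors in edgeR, no low-count filter, limma 3.58.1 on log2(TPM + 1) or log2(TPM + 0.1), no fold minimum, other sets of libraries in the fit, the replicate number as a block, and leaving out each library.

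Members, lists, role groups and comparisons were chosen with earlier results of these data known. Named genes are the 10 members with the highest TPM, the called members, the 2 with the lowest p where none was called, the meu genes, those at 0, those of recombination and spores, the 5 members with the most antisense RNA, and, in each list, called genes and up to 3 of the highest. Others were named after their values were seen. Within groups, libraries differed beyond counting error. The chi-square divided by its degrees of freedom was 40.5 in ntu1_KO, 11.9 in ntu2_KO, 4.23 in wt_WT and 4.68 in ntu_WT.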

Additional observations from a re-analysis of the deposited data

How the results depend on the processing

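With the median over libraries, without wt_WT or with each library left out, 94 to 95 members had at least 1 TPM and the members' median was 8.98 to 9.25 TPM. No result changed direction in the alternatives run. In wt_WT over ntu_WT the 1 called member became 5 with no fold minimum and 0 under DESeq2 and the 3 limma settings, and leaving out each library in turn gave 0 to 0. The adjusted p of mug133 was 0.0699 under DESeq2 and 0.0683 to 0.192 with each library left out. In ntu2_KO over ntu_WT, and in the test among the 4 groups, leaving out each library gave 0 to 1, the 1 being meu19 without ntu2_KO replicate 3, whose level there was 72.6 TPM, against 23.9 and 26.5 TPM in the other ntu2_KO libraries. With no fold minimum the counts were 2 in ntu1_KO over wt_WT, 1 in ntu2_KO over wt_WT and 2 among the 4 groups. Counting list genes called in any comparison, the regulators fell to 1 called gene under the 3 limma settings, and leaving out each library gave 1 to 3. With no fold minimum the recombination genes had 1, the sporulation genes 4 and the elimination factors 1, and leaving out each library gave 0 to 1 for the sporulation genes. The cause of these shifts was not tested. Same-numbered libraries did not deviate together as a whole (18 pairs, correlations of -0.162 to 0.0978), and 1 of 12 libraries correlated best with its own number. In mug108, fbp1 and inv1, replicate 1 was nonetheless the highest in both knockouts and in ntu_WT. With the replicate number as a block, 1 member was called in wt_WT over ntu_WT and 0 in each of the other comparisons. Precision is limited in members under 10 TPM.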
